A study of Olea europaea with 12 samples.

Results

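Homeobox-leucine zipper (HD-Zip) genes code for plant transcription factors in which a DNA-binding homeodomain is joined to a leucine zipper that pairs the proteins. They were followed here in ripening olive fruit (Olea europaea, cultivar Koroneiki). They were taken as the genes whose description in the deposited table holds the words homeobox-leucine zipper. Of the 51008 genes in the table, 96 did. A gene was tested where its FPKM (fragments per kilobase of transcript scaled to the mapped total, a level per length) was at least 1 in at least 3 of the 12 libraries. This left 59 of the 96 HD-Zip genes, among 26131 genes of every kind.

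The 12 RNA-seq libraries were made from fruit mesocarp, the flesh, with 3 libraries (letters A, B and C) at each of 4 ages. Ages are counted in weeks after flowering (WAF) and were 17, 21, 26 and 30. The fruits of every age came from field-grown trees of the one cultivar under standard local care in one season. Age was the one factor that the labels vary, and the time of year changed with it. The library names begin with Sep, Oct, Nov and Dec in the order of the ages. Fruit age and time of year thus cannot be told apart. The labels do not give the number of trees or fruits behind a library, nor whether the skin was removed. The comparisons were 30 with 17 WAF, and then 21 with 17, 26 with 21 and 30 with 26 WAF.

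In Arabidopsis and rice the family falls into 4 classes. Class I genes respond to water shortage and the hormone abscisic acid and shape growth, and class II genes act in the response to shade and light. Class III genes set leaf polarity and vascular pattern and are cut back by the microRNAs miR165 and miR166. Class IV genes specify the epidermis, the outermost cell layer, and steer its cuticle, trichomes and pigment. The names below are those the annotation borrowed from Arabidopsis (ATHB, HAT, HDG, ANTHOCYANINLESS 2, GLABRA 2, PROTODERMAL FACTOR 2, MERISTEM L1, REVOLUTA) or rice (HOX, ROC), and they do not establish what an olive gene does.

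Of the 18 genes with epidermal names, 15 passed the filter. They were 6 named ANTHOCYANINLESS 2, 4 named GLABRA 2, 2 named ROC3, and 1 each named ROC8, PROTODERMAL FACTOR 2 and MERISTEM L1. A further 2 of 8 class IV genes with HDG names passed. The other classes were represented by 21 of 31 class I genes, 11 of 25 class II genes and 10 of 14 class III genes. Of the 37 genes that did not pass, 7 were listed at 0 in every library and 26 never reached an FPKM of 0.5. The third highest FPKM of a gene decided whether it was kept. Just inside the filter this value was 1.05 for the ATHB-15 gene LOC111390315 and 1.08 for the ATHB-12 gene LOC111376570. Just outside it was 0.94 for the HAT4 gene LOC111380059 and 0.92 for a second MERISTEM L1 gene, LOC111383307. Of the 59 tested genes, 51 had a library at or above 1 FPKM at every age, and 8 had one at 1 to 3 of the ages.

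Features that the choice of genes did not use followed the classes. A second description, from the closest protein match, named a class for 79 of the 96 genes and gave the same class for 73 of them. The 6 exceptions all lay between HDG names and epidermal names within class IV. A lipid-binding annotation was attached to 13 of 18 epidermal-named, 5 of 8 HDG-named and 8 of 14 class III genes. It was attached to 0 of 31 class I genes and 0 of 25 class II genes. Class III and class IV proteins are known to carry a START domain, a lipid-binding fold that class I and class II proteins lack.

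Library sums of FPKM lay between 790578 and 845585. The 30 WAF C library listed 36754 genes above 0, and the other 11 libraries listed 38351 to 39524. With any single library left out, the counts of called HD-Zip genes and of called epidermal names stayed within 1.5 times. Wood and stone markers were low: 2 of 19 secondary wall genes passed the filter, 2 were listed at 0 in every library, and their summed level lay between 12.7 and 20.3 FPKM. Of 9 seed storage genes 3 passed, with summed levels of 137 to 140.2 FPKM in week 17, 103 to 104 in week 21, 87.3 to 91 in week 26 and 65.4 to 70.4 in week 30. Cuticle and wax genes, listed by name to stand for epidermis, were detected at every age, with 45 of 91 past the filter. Whether they were expressed in the epidermis alone is not known here. In whole tissue such as this, fewer cells of a type and less RNA per cell cannot be told apart. The summed levels of these marker lists differed between ages, and their part in the results was not tested.

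Over the 4 ages, the F test of limma with Benjamini-Hochberg adjustment called 59 of 59 tested HD-Zip genes, and it called 89.9% of all tested genes. Most epidermal names had their highest mean at 17 WAF, most ATHB-12 genes of class I had theirs at 30 WAF, and the 4 REVOLUTA genes of class III were lowest at 30 WAF. At 30 with 17 WAF, 22 HD-Zip genes were higher, against a background of 34.9% of all tested genes, and 28 were lower, against 38.9%. The other 9 were not called, where 73.9% of all tested genes were called either way. These counts include genes kept only through the ages where they were high, so their calls followed from how they were kept. HDG11 LOC111378533 and HAT22 LOC111365438 were among the higher, and ATHB-12 LOC111376570 and HAT3 LOC111383557 were among the lower. The counts at 21 with 17 and at 26 with 21 WAF include such genes as well. The median log2 difference was -0.18 for the HD-Zip genes and -0.03 for all tested genes, and the median size of the difference, sign set aside, was 0.67 for the HD-Zip genes and 0.37 for all tested genes. The mean level was highest at 17 WAF for 24 HD-Zip genes, at 21 WAF for 13, at 26 WAF for 3 and at 30 WAF for 19. The shares of all tested genes that peaked in these weeks were 35.4% in week 17, 19% in week 21, 9.95% in week 26 and 35.7% in week 30. Differences are given throughout on the log2(FPKM + 1) scale, which understates the change of genes with low levels.

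**Figure D1:**
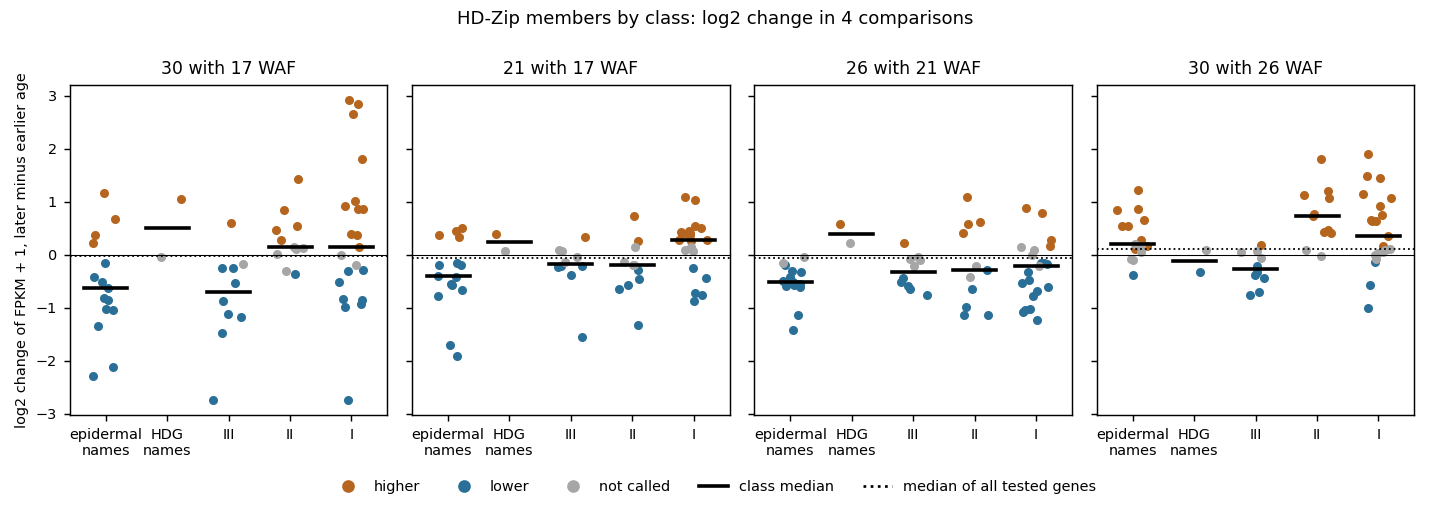
Log2 differences of the 59 tested HD-Zip genes (y axis, log2(FPKM + 1), later minus earlier age), grouped by class on the x axis. Each of the 4 age comparisons has its own panel. Points are genes, and the epidermal names lie mostly below 0 at 30 with 17 WAF, where 11 of 15 fell.

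Most epidermal names declined. Of the 15, 11 were lower and 4 higher at 30 WAF than at 17 WAF, with a median log2 difference of -0.62. In the 42 genes of classes I, II and III, 17 were higher and 17 lower, with a median of 0.01. These classes differed, with medians of 0.15 for class I, 0.14 for class II and -0.70 for class III, where 8 of 10 were lower. The decline was thus not particular to the epidermal names. For comparison, 34.9% of all tested genes were higher and 38.9% lower, with a median of -0.03. Summed over the 15 genes, FPKM was 411 ± 6.05 in week 17, 263 ± 3.9 in week 21, 176 ± 1.65 in week 26 and 239 ± 1.06 in week 30 (SD, n = 3 each). The sum over the 42 genes of classes I, II and III was 907 ± 16.7, 1059 ± 7.41, 848 ± 5.66 and 985 ± 4.79 FPKM at these ages. The mean level was highest at 17 WAF for 11 of the 15 epidermal names and for 13 of the 42 others, against 35.4% of all tested genes.

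The 4 GLABRA 2 genes differed in direction from the other 11 at 30 with 17 and at 21 with 17 WAF, a split that was made after the values were seen. The 11 were lower at 30 than at 17 WAF, lower at 21 than at 17 WAF and lower at 26 than at 21 WAF, each of them in each comparison. The 4 GLABRA 2 genes were higher at 30 and at 21 than at 17 WAF, though some calls were lost in other fits. In the later steps they went the same way as the others, with 0 higher and 2 lower at 26 with 21 WAF (median log2 difference -0.18, and 0 higher at an unadjusted p under 0.05 in limma) and 2 higher at 30 with 26 WAF, where 7 of the 11 were higher. In Arabidopsis GLABRA 2 governs trichome and root hair fate and seed coat mucilage, whereas MERISTEM L1 and PROTODERMAL FACTOR 2 keep the shoot epidermis in its identity.

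The 6 ANTHOCYANINLESS 2 genes, named for an Arabidopsis factor needed for anthocyanin in the layer beneath the epidermis, carried most of the epidermal sum. Their share of that sum was 84.7 to 85.5% in the libraries of week 17, 76.7 to 77.2% in week 21, 72.2 to 73.0% in week 26 and 67.5 to 68.9% in week 30. The share of the 4 GLABRA 2 genes was 6.48 to 7.10%, 14.8 to 15.2%, 19.5 to 19.9% and 23.1 to 24.7% at these ages. The libraries of the 4 ages did not overlap in either share.

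The largest drop in FPKM among the 15 was that of the ANTHOCYANINLESS 2 gene LOC111410766. It stood at 94.0, 88.8 and 87.8 FPKM in the 17 WAF libraries, 22.4, 25.3 and 22.4 at 21 WAF, 8.24, 8.13 and 7.84 at 26 WAF, and 19.7, 19.4 and 21.1 at 30 WAF. Every library of 17 WAF thus lay above every later one, and the 26 WAF libraries lay below all others. The log2 difference was -1.91 ± 0.05 (SE) at 21 with 17 WAF (adjusted p = 8.8e-12) and -1.42 ± 0.05 at 26 with 21 WAF (adjusted p = 1.9e-10). At 30 with 26 WAF it was 1.22 ± 0.05 (adjusted p = 2.7e-10), so that a partial return followed the low point. The gene LOC111387619 of the same name took the same course at a lower level, with 33.8, 36.8 and 33.4 FPKM at 17 WAF, 9.36, 9.79 and 10.6 at 21 WAF, 3.65, 4.38 and 3.96 at 26 WAF, and 5.81, 7.54 and 5.64 at 30 WAF. It fell by 2.29 on the log2 scale at 30 with 17 WAF (SE 0.09, adjusted p = 7.4e-11), the deepest fall among the 15.

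The most abundant of the 15, the ANTHOCYANINLESS 2 gene LOC111391553, had 102, 93.9 and 97.4 FPKM at 17 WAF, 56.7, 57.3 and 55.9 at 21 WAF, 42.6, 41.4 and 41.6 at 26 WAF, and 46.6, 47.3 and 46.3 at 30 WAF. No 2 ages overlapped. Its log2 difference at 30 with 17 WAF was -1.05 ± 0.03 (adjusted p = 5.9e-12). At 30 with 26 WAF it was higher by 0.16 ± 0.03 (adjusted p = 0.00096), and with median-of-ratios scaling, which sets the typical gene level in all libraries, that difference was 0.05 with an adjusted p of 0.22. The gene LOC111410217 held 65.2, 64.8 and 67.4 FPKM at 17 WAF and 60.6, 59.0 and 57.1 at 21 WAF, and then 39.8, 39.2 and 38.3 at 26 WAF and 42.1, 43.8 and 41.4 at 30 WAF. Most of its fall thus came between 21 and 26 WAF, with a log2 difference of -0.58 ± 0.03 (adjusted p = 1.5e-08). Its difference of -0.16 at 21 with 17 WAF and that of 0.11 at 30 with 26 WAF passed the test (adjusted p = 0.0013 and 0.0084), but with median-of-ratios scaling neither did (adjusted p = 0.068 and 0.83). The gene LOC111389342 was nearly back at its early level by the last age, with 34.4, 34.8 and 35.9 FPKM at 30 WAF, against 37.6, 40.4 and 39.2 at 17 WAF, while its 26 WAF libraries held 22.9, 21.3 and 21.4. The gene LOC111387722 showed no such return: it had 12.2, 12.4 and 12.1 FPKM at 30 WAF, against 12.5, 13.4 and 12.9 at 26 WAF and 23.2, 21.2 and 22.7 at 17 WAF. Its difference of -0.19 at 21 with 17 WAF (adjusted p = 0.0034) was -0.11 with median-of-ratios scaling (adjusted p = 0.052).

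Among the GLABRA 2 genes, LOC111406410 was by far the most abundant. Its libraries held 18.6, 19.6 and 17.8 FPKM at 17 WAF, 26.6, 26.4 and 27.4 at 21 WAF, 24.4, 22.9 and 22.5 at 26 WAF, and 44.5, 42.1 and 42.3 at 30 WAF. The groups did not overlap, and the 30 WAF libraries were the highest. The log2 difference was 1.16 ± 0.04 at 30 with 17 WAF (adjusted p = 3.2e-11) and 0.86 ± 0.04 at 30 with 26 WAF (adjusted p = 1.5e-09), with a small fall of 0.20 ± 0.04 at 26 with 21 WAF (adjusted p = 0.0017). The gene LOC111381950 had 9.13, 8.67 and 8.44 FPKM at 30 WAF, against 5.07, 5.39 and 4.93 at 17 WAF, with no overlap and a log2 difference of 0.67 ± 0.07 (adjusted p = 1.7e-06). The other two were low. LOC111391285 had 3.14, 2.61 and 3.14 FPKM at 30 WAF, against 1.94, 2.18 and 2.08 at 17 WAF, a log2 difference of 0.37 ± 0.10 (adjusted p = 0.0049). Its rise of 0.33 at 21 with 17 WAF (adjusted p = 0.013) was 0.22 without the 21 WAF B library (adjusted p = 0.065). LOC111371088 had 2.10, 1.93 and 2.27 FPKM at 30 WAF, against 1.53, 1.87 and 1.57 at 17 WAF. Its difference of 0.22 ± 0.08 (adjusted p = 0.029) lost the call when any one of the 17 WAF A, 17 WAF C, 30 WAF A or 30 WAF C libraries was left out (adjusted p = 0.096, 0.084, 0.058 and 0.093). The call was also lost with TPM scaling, with library weights, without the filter and on the 2 compared ages alone (adjusted p = 0.075, 0.056, 0.053 and 0.054).

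**Figure D2:**
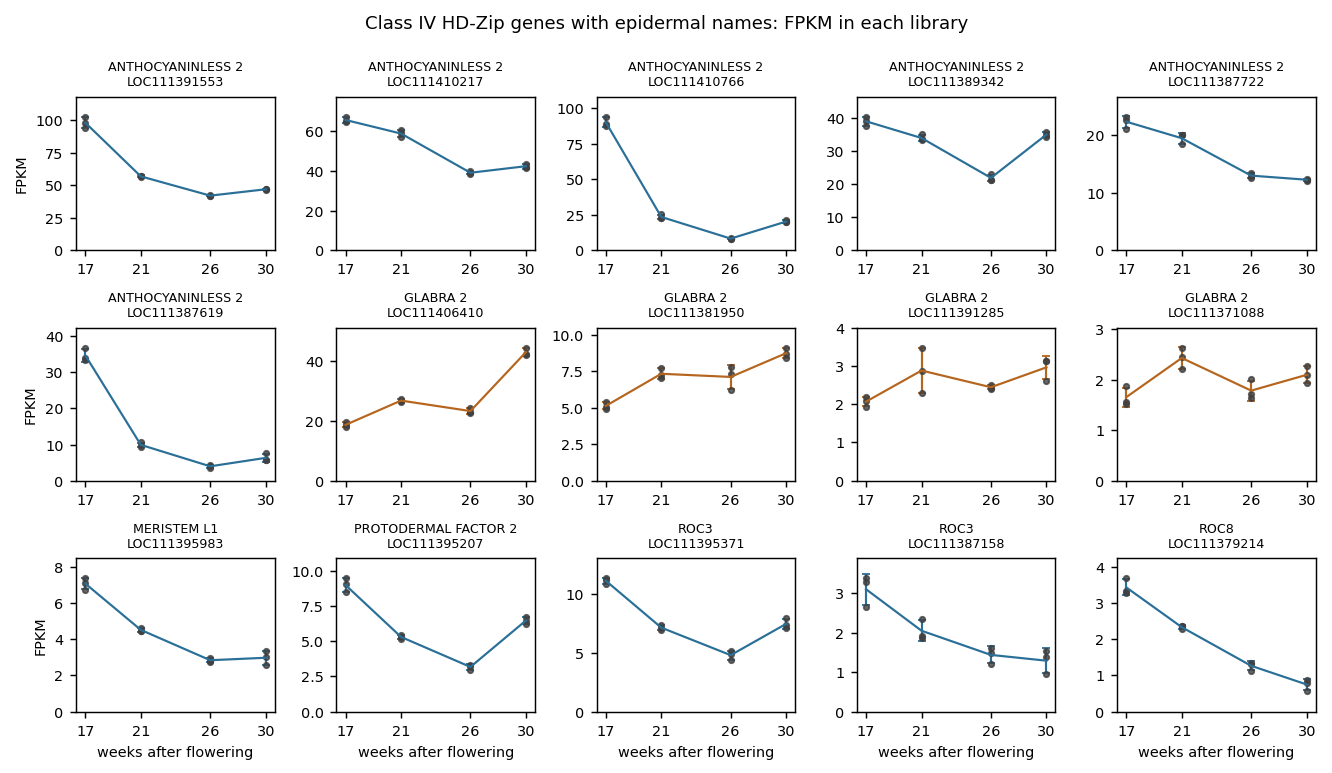
FPKM (y axis) against weeks after flowering (x axis) for the 15 tested genes with epidermal names, one panel each. Points are libraries, lines join the means, error bars are the SD of 3 libraries, and the GLABRA 2 panels are orange: these 4 lie higher at 30 than at 17 WAF and the other 11 lie lower.

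MERISTEM L1 and PROTODERMAL FACTOR 2 code for near relatives that in Arabidopsis share the task of keeping epidermal identity, and the 2 olive genes of these names, LOC111395983 and LOC111395207, are next to each other in the RefSeq annotation with no gene between. MERISTEM L1 had 7.39, 6.76 and 7.15 FPKM at 17 WAF, 4.44, 4.66 and 4.49 at 21 WAF, 2.77, 2.98 and 2.79 at 26 WAF, and 3.03, 3.36 and 2.56 at 30 WAF. PROTODERMAL FACTOR 2 had 9.05, 9.49 and 8.50 FPKM at 17 WAF, 5.29, 5.18 and 5.47 at 21 WAF, 2.95, 3.33 and 3.25 at 26 WAF, and 6.25, 6.45 and 6.76 at 30 WAF. Both fell in step up to 26 WAF, with log2 differences at 26 with 21 WAF of -0.52 ± 0.07 for MERISTEM L1 and -0.60 ± 0.06 for PROTODERMAL FACTOR 2 (adjusted p = 4.8e-05 and 1.8e-06). At 30 with 26 WAF, PROTODERMAL FACTOR 2 rose by 0.84 ± 0.06 (adjusted p = 3.7e-08), whereas MERISTEM L1 differed by 0.05 ± 0.07 with overlapping libraries (adjusted p = 0.59). The difference between these 2 responses was not tested.

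The ROC genes take their name from the outermost cells of rice. The ROC3 gene LOC111395371 had 11.3, 10.8 and 11.2 FPKM at 17 WAF, 7.33, 6.91 and 7.13 at 21 WAF, 5.13, 4.36 and 4.87 at 26 WAF, and 7.33, 7.08 and 7.93 at 30 WAF, with a rise of 0.55 ± 0.06 at 30 with 26 WAF (adjusted p = 3.2e-06). The other ROC3 gene, LOC111387158, was lower, at 0.94, 1.54 and 1.39 FPKM at 30 WAF, against 3.38, 3.28 and 2.65 at 17 WAF. Its log2 difference at 30 with 17 WAF was -0.85 ± 0.12 (adjusted p = 2.4e-05). That of -0.32 at 26 with 21 WAF (adjusted p = 0.032) was lost with median-of-ratios scaling (adjusted p = 0.059) and without the 21 WAF B, 26 WAF A or 26 WAF B library (adjusted p = 0.12, 0.12 and 0.053). The ROC8 gene LOC111379214 kept falling, with 3.68, 3.33 and 3.28 FPKM at 17 WAF, 2.37, 2.35 and 2.27 at 21 WAF, 1.35, 1.12 and 1.32 at 26 WAF, and 0.87, 0.80 and 0.57 at 30 WAF. It was the one epidermal name called lower at 30 with 26 WAF (log2 difference -0.38 ± 0.08, adjusted p = 0.0014). With median-of-ratios scaling the ANTHOCYANINLESS 2 gene LOC111387722 was called lower there as well (-0.18, adjusted p = 0.0044).

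The 2 tested HDG genes of class IV were close to the filter. HDG11, LOC111378533, whose Arabidopsis namesake improves drought tolerance when overproduced, had 1.57, 1.2 and 1.92 FPKM at 30 WAF, against 0.08, 0.39 and 0.24 at 17 WAF. HDG1, LOC111396761, had 1.17, 0.79 and 1.0 FPKM at 30 WAF, against 1.48, 1.37 and 1.61 at 26 WAF (log2 difference -0.33 ± 0.09, adjusted p = 0.0048). HDG11 passed the filter on the later 2 ages alone, so its difference from 17 WAF is given with no test here. Its call is nevertheless part of the HD-Zip counts.

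Cuticle and wax genes, which in Arabidopsis lie downstream of class IV factors, were set beside the epidermal names. Their summed level was 1626 to 1648 FPKM in week 17, 1538 to 1570 in week 21, 1315 to 1341 in week 26 and 2998 to 3047 in week 30. Of the 45 tested, 24 were higher and 15 lower at 30 with 17 WAF, 9 higher and 24 lower at 21 with 17 WAF, 11 higher and 23 lower at 26 with 21 WAF, and 34 higher and 5 lower at 30 with 26 WAF. Of all tested genes, 34.9% were higher and 38.9% lower in the first of these comparisons, 22.2% and 35.9% in the second, 23.2% and 32.9% in the third, and 42% and 24.3% in the last. The counts of higher cuticle genes at 21 with 17 and at 26 with 21 WAF thus lay near the background. The cuticle sum was highest at 30 WAF, and the epidermal HD-Zip sum was highest at 17 WAF. Genes listed by names linked to hair and pigment fate of the epidermis, whether as partners or as regulators of the epidermal factors, numbered 31, of which 12 were tested. Of those, 3 were higher and 7 lower at 30 with 17 WAF, 0 higher (also at an unadjusted p under 0.05 in limma) and 7 lower at 21 with 17 WAF, 5 higher and 4 lower at 26 with 21 WAF, and 5 higher and 4 lower at 30 with 26 WAF. The lower count at 26 with 21 WAF and the higher count at 30 with 26 WAF lay near the background.

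Class III moved mostly down. Of its 10 tested genes, 8 were lower and 1 higher at 30 with 17 WAF, with a median log2 difference of -0.70. Of all tested genes, 38.9% were lower and 34.9% higher. Their summed level was 176 ± 0.45 FPKM in week 17, 158 ± 2.73 in week 21, 131 ± 1.2 in week 26 and 115 ± 2.22 in week 30 (SD, n = 3 each), so that the class III sum was lowest at the last age. The lowest mean fell at 30 WAF for 7 of the 10, and for 28.6% of all tested genes.

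REVOLUTA sets the upper side of the leaf and organises vascular tissue and meristems in Arabidopsis, and 4 olive genes carry its name. The most abundant, LOC111407011, had 48.9, 52.2 and 52.1 FPKM at 17 WAF, 51, 48.7 and 48.6 at 21 WAF, 28.1, 29.1 and 29.6 at 26 WAF, and 23.4, 22.5 and 22.9 at 30 WAF. The first 2 ages overlapped, and the later 2 lay below them and apart from each other. The log2 difference was -0.75 ± 0.04 at 26 with 21 WAF (adjusted p = 3.3e-09) and -0.32 ± 0.04 at 30 with 26 WAF (adjusted p = 5.6e-06). LOC111393498 had 16.8, 18.2 and 20.9 FPKM at 30 WAF, against 35.1, 33.8 and 35 at 17 WAF, with a log2 difference of -0.87 ± 0.08 (adjusted p = 6.3e-07). LOC111390498 had 2.58, 2.71 and 3.63 FPKM at 30 WAF, against 4.34, 6.44 and 5.70 at 26 WAF and 11, 10.2 and 8.91 at 17 WAF. It showed the deepest fall of the 4, with a log2 difference of -1.48 ± 0.12 at 30 with 17 WAF (adjusted p = 1.5e-07). LOC111400187, with 2 genes between it and LOC111407011 in the RefSeq annotation, had 1.90, 1.57 and 1.91 FPKM at 30 WAF, against 5.78, 5.29 and 4.91 at 17 WAF (log2 difference -1.18 ± 0.07, adjusted p = 7.4e-09).

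The 5 genes named ATHB-15, a regulator of vascular development and meristems in Arabidopsis, parted ways. LOC111387820 had 16, 15.3 and 15.4 FPKM at 17 WAF, 5.14, 4.43 and 4.43 at 21 WAF, 3.13, 2.95 and 3.46 at 26 WAF, and 1.5, 1.51 and 1.42 at 30 WAF. No 2 ages overlapped, and the log2 difference was -2.74 ± 0.06 at 30 with 17 WAF (adjusted p = 3.8e-13). LOC111405128 went the other way, with 26.6, 27.6 and 27.5 FPKM at 17 WAF, 33.3, 34.3 and 36.0 at 21 WAF, 40.8, 40.4 and 39.9 at 26 WAF, and 40.9, 41.4 and 42.8 at 30 WAF. It was the one class III gene that was higher at 30 than at 17 WAF (log2 difference 0.60 ± 0.03, adjusted p = 4.1e-09), and at 30 WAF it was the most abundant of the class. LOC111367836 moved little, with 13.2, 13.4 and 12.5 FPKM at 30 WAF, against 15.2, 15.3 and 16.6 at 17 WAF (log2 difference -0.25 ± 0.04, adjusted p = 0.00016). Of the other two, LOC111372949 averaged 10.5 FPKM at 30 WAF, against 12.8 at 17 WAF (log2 difference -0.26 ± 0.07, adjusted p = 0.0044), and LOC111390315 stayed near 1 FPKM with no call in the 4 comparisons, though with TPM scaling it was called lower at 30 with 17 WAF (-0.24, adjusted p = 0.043). The HOX10 gene LOC111372192, named after rice, averaged 1.60 FPKM at 30 WAF, against 2.78 at 17 WAF (log2 difference -0.54 ± 0.08, adjusted p = 7e-05).

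**Figure D3:**
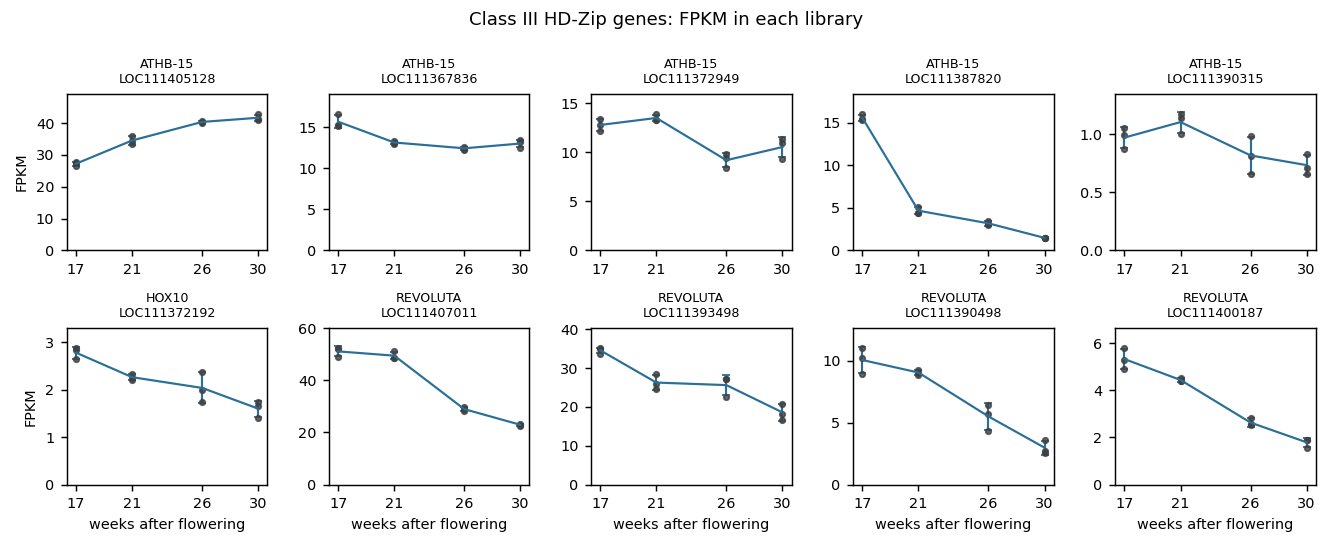
FPKM (y axis) against weeks after flowering (x axis) for the 10 tested class III genes, one panel each. Points are libraries, lines join the means and error bars are the SD of 3 libraries; the 4 REVOLUTA panels are lowest at 30 WAF, and the ATHB-15 gene LOC111405128 is highest there.

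LITTLE ZIPPER proteins pair with class III proteins and block them in Arabidopsis. The 3 olive genes of that name did not pass the filter, and their summed level was at most 0.3 FPKM in any library. Secondary wall markers, which go with vascular and stone tissue, summed to 12.7 to 15.6 FPKM at 30 WAF, against 15.6 to 17.9 FPKM at 17 WAF.

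Class I, the most abundant class, held genes with opposite courses. Its 21 tested genes summed to 611 ± 12.8 FPKM in week 17, 782 ± 8.66 in week 21, 608 ± 6.99 in week 26 and 724 ± 9.44 in week 30 (SD, n = 3 each). At 30 with 17 WAF, 11 were higher and 8 lower, with a median log2 difference of 0.15. The shares of all tested genes were 34.9% higher and 38.9% lower, so the count of lower class I genes lay near the background. The 8 include ATHB-12 LOC111376570, which was kept through 17 WAF alone, so that its call followed from how it was kept. The widest spread lay between ATHB-12 and ATHB-7, a pair of close relatives that drought and abscisic acid switch on in Arabidopsis.

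Of the 6 ATHB-12 genes, 5 were higher at 30 than at 17 WAF. LOC111379783 had 2.07, 2.29 and 1.48 FPKM at 17 WAF, 1.96, 2.59 and 2.22 at 21 WAF, 4.59, 5.28 and 5.05 at 26 WAF, and 22.8, 19.9 and 21.0 at 30 WAF. The 2 early ages overlapped, and the 30 WAF libraries were far above the rest, with a log2 difference of 2.92 ± 0.10 at 30 with 17 WAF (adjusted p = 2.5e-11) and 1.90 ± 0.10 at 30 with 26 WAF (adjusted p = 4.3e-09). LOC111367726 had 2.39, 2.93 and 3.33 FPKM at 17 WAF, 7.58, 6.89 and 7.06 at 21 WAF, 8.72, 8.71 and 9.29 at 26 WAF, and 28.2, 23.8 and 28 at 30 WAF, so it moved up first by 21 WAF and again by 30 WAF. Its log2 difference was 1.08 ± 0.09 at 21 with 17 WAF (adjusted p = 2.5e-07) and 1.48 ± 0.09 at 30 with 26 WAF (adjusted p = 8.1e-09). Its rise of 0.28 at 26 with 21 WAF (adjusted p = 0.015) was lost without the 21 WAF B or the 26 WAF C library (adjusted p = 0.052 and 0.054). LOC111402907 had 4.59, 4.07 and 4.09 FPKM at 17 WAF, 6.21, 6.0 and 5.86 at 21 WAF, 11.8, 10.7 and 11 at 26 WAF, and 33.7, 30.4 and 31.9 at 30 WAF. It rose at each step, by 2.65 ± 0.06 in all at 30 with 17 WAF (adjusted p = 1.1e-13).

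The most abundant ATHB-12 gene, LOC111409943, had 54, 58.1 and 57.9 FPKM at 17 WAF, 69.6, 68.9 and 67.8 at 21 WAF, 69.0, 68.2 and 67.1 at 26 WAF, and 118, 113 and 114 at 30 WAF. Its log2 difference at 30 with 17 WAF was 1.01 ± 0.03 (adjusted p = 8.9e-12), and the 21 and 26 WAF libraries overlapped. LOC111385728 had 7.78, 8.14 and 7.72 FPKM at 30 WAF, against 1.63, 1.84 and 1.22 at 17 WAF (log2 difference 1.80 ± 0.09, adjusted p = 6.2e-10). The exception was LOC111376570, which passed the filter at 17 WAF alone, with 1.08, 1.25 and 1.43 FPKM there and 0.04 to 0.39 FPKM at every later age. Summed over the 6 genes, ATHB-12 came to 68.6 ± 2.44 FPKM in week 17, 87.2 ± 1.24 in week 21, 96.3 ± 1.04 in week 26 and 203 ± 7.53 in week 30.

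The ATHB-7 gene, LOC111407662, ran in the opposite direction, with 37.4, 34.4 and 36.5 FPKM at 17 WAF, 21.8, 21.5 and 21.2 at 21 WAF, 9.73, 9.69 and 10.8 at 26 WAF, and 4.13, 4.89 and 4.61 at 30 WAF. It fell at every step with no overlap, and had a log2 difference of -2.75 ± 0.06 at 30 with 17 WAF (adjusted p = 1e-13) and one of -0.999 ± 0.06 at 30 with 26 WAF (adjusted p = 6.7e-09). The fall at 30 with 17 WAF was about as deep as that of the ATHB-15 gene LOC111387820 (-2.74 ± 0.06), and in FPKM it was 7.95-fold for ATHB-7 and 10.5-fold for LOC111387820.

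**Figure D4:**
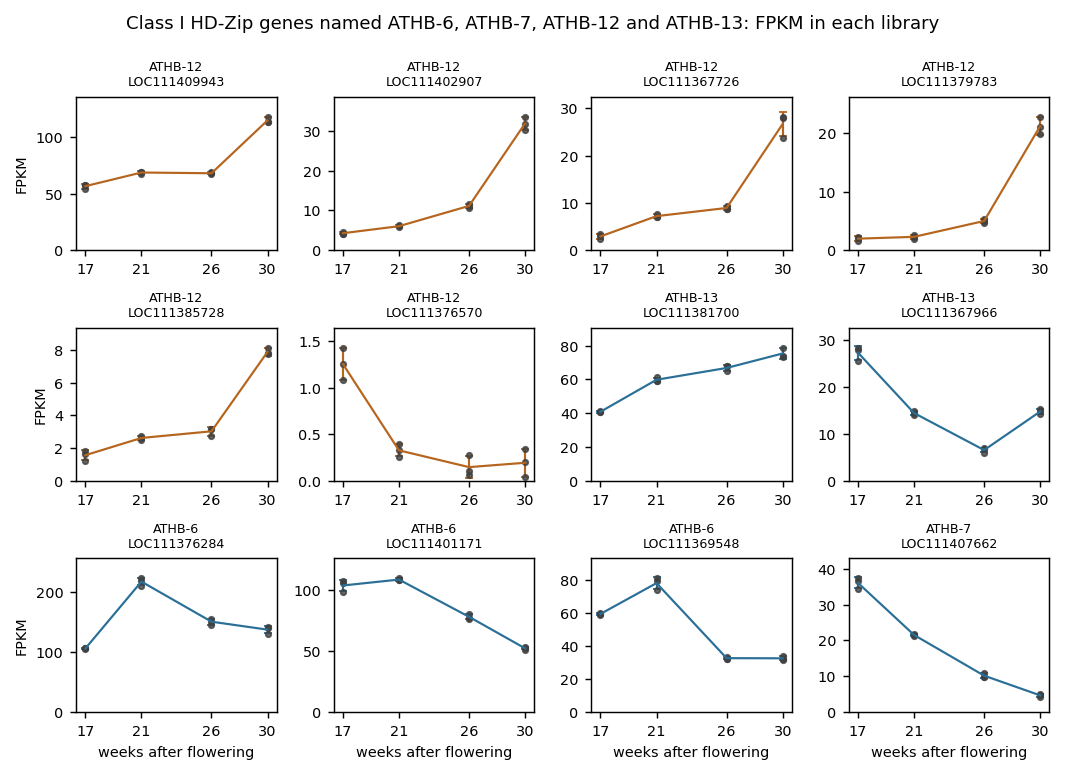
FPKM (y axis) against weeks after flowering (x axis) for the tested class I genes named ATHB-6, ATHB-7, ATHB-12 and ATHB-13, one panel each, with ATHB-12 in orange. The other class I genes are not shown. Points are libraries, lines join the means and error bars are the SD of 3 libraries; 5 of 6 ATHB-12 panels are highest at 30 WAF, and the ATHB-7 panel is lowest there.

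ATHB-6, a target of the abscisic acid co-receptor phosphatase in Arabidopsis that dampens the hormone response, gave the highest levels of the family. LOC111376284 had 104, 105 and 105 FPKM at 17 WAF, 210, 222 and 218 at 21 WAF, 144, 155 and 150 at 26 WAF, and 140, 140 and 129 at 30 WAF. It peaked at 21 WAF, with a log2 difference of 1.04 ± 0.04 at 21 with 17 WAF (adjusted p = 1.1e-10) and -0.53 ± 0.04 at 26 with 21 WAF (adjusted p = 9.5e-08). LOC111401171 had 98.4, 105 and 107 FPKM at 17 WAF, 108, 110 and 108 at 21 WAF, 76.9, 80.4 and 76.4 at 26 WAF, and 52.3, 50.9 and 52.7 at 30 WAF, a log2 difference of -0.98 ± 0.03 at 30 with 17 WAF (adjusted p = 2.3e-11). LOC111369548 had 59.9, 59.5 and 59.1 FPKM at 17 WAF, 74.3, 81.2 and 79.4 at 21 WAF, 32.2, 33.3 and 32.2 at 26 WAF, and 31.8, 31.6 and 33.9 at 30 WAF. Its fall came in one step, with a log2 difference of -1.24 ± 0.04 at 26 with 21 WAF (adjusted p = 4.6e-11). The 3 genes of this name were thus alike in being lower at 26 than at 21 WAF and differed in direction at 30 with 17 WAF, where LOC111376284 was higher by 0.37 ± 0.04 (adjusted p = 9.1e-07).

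ATHB-13, which shapes cotyledons in response to sugar in Arabidopsis, was named on 2 tested genes. LOC111381700 had 74.1, 73.1 and 78.9 FPKM at 30 WAF, against 40.5, 40.5 and 41.6 at 17 WAF (log2 difference 0.87 ± 0.03, adjusted p = 7.9e-11). Its further rise of 0.17 at 30 with 26 WAF (adjusted p = 0.00071) was 0.06 with median-of-ratios scaling (adjusted p = 0.15). LOC111367966 fell and partly returned, with 25.6, 28.4 and 27.9 FPKM at 17 WAF, 14.5, 14.9 and 13.9 at 21 WAF, 6.91, 5.98 and 6.74 at 26 WAF, and 15.2, 14.2 and 14.9 at 30 WAF. The log2 difference was -1.03 ± 0.06 at 26 with 21 WAF (adjusted p = 8.5e-09) and 1.06 ± 0.06 at 30 with 26 WAF (adjusted p = 2.8e-09).

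The other class I genes were 4 named HAT5, 3 named ATHB-54, and 1 each named ATHB-40 and ATHB-52. The ATHB-40 gene LOC111386201 averaged 3.20 FPKM at 30 WAF, against 4.18 at 17 WAF (log2 difference -0.30 ± 0.08, adjusted p = 0.0032). The ATHB-52 gene LOC111370105 averaged 12.1 FPKM at 30 WAF, against 13.9 at 17 WAF, with overlapping libraries (-0.20 ± 0.09, adjusted p = 0.059). With TPM scaling that ATHB-52 difference was called (-0.27, adjusted p = 0.011). HAT5 promotes growth of leaf and stem cells in Arabidopsis. Its most abundant namesake, LOC111388724, had 63, 62.6 and 62.8 FPKM at 30 WAF, against 46.1, 49.1 and 48.5 at 17 WAF (log2 difference 0.38 ± 0.04, adjusted p = 1.7e-06). The HAT5 genes LOC111383937 and LOC111400847 were lower at 30 than at 17 WAF, by log2 differences of -0.52 and -0.29 (adjusted p = 4.6e-07 and 0.00071), and LOC111392335 was not called there (0.00, adjusted p = 0.97). The 3 ATHB-54 genes were higher at 30 than at 17 WAF, though the difference of 0.15 for LOC111380376 (adjusted p = 0.0026) was 0.07 with TPM scaling (adjusted p = 0.13). LOC111398898 had 32.1, 33.9 and 31.6 FPKM at 30 WAF, against 15.7, 17.1 and 17.4 at 17 WAF (log2 difference 0.92 ± 0.04, adjusted p = 3.5e-10), and LOC111395743 had 24.9, 25.4 and 25.7 FPKM at 30 WAF, against 12.5, 14.3 and 13.6 at 17 WAF (log2 difference 0.86 ± 0.05, adjusted p = 2e-09).

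Receptors, phosphatases and kinases of abscisic acid signalling, which act upstream of class I genes in Arabidopsis, numbered 38, with 24 tested. Of these, 18 were higher and 3 lower at 30 with 17 WAF, 8 higher and 10 lower at 21 with 17 WAF, 9 higher and 7 lower at 26 with 21 WAF, and 20 higher and 2 lower at 30 with 26 WAF. The same 4 comparisons gave 34.9%, 22.2%, 23.2% and 42% higher and 38.9%, 35.9%, 32.9% and 24.3% lower among all tested genes. At 26 with 21 WAF the count of lower genes in the list lay near the background. Their summed level was 440 to 447 FPKM in week 17, 436 to 440 in week 21, 514 to 518 in week 26 and 779 to 804 in week 30. The last age was thus the highest for this list and for the ATHB-12 sum, while ATHB-7 was lowest there.

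Of the class II genes, 6 had their lowest mean at 26 WAF and 0 had it at 30 WAF, against 28.6% of all tested genes at each of these ages. Their sum over 11 tested genes was 120 ± 4.17 FPKM in week 17, 118 ± 1.96 in week 21, 109 ± 4.71 in week 26 and 145 ± 5.53 in week 30 (SD, n = 3 each). At 30 with 17 WAF, 5 were higher and 1 lower, where 34.9% of all tested genes were higher and 38.9% lower. One of the 5, HAT22 LOC111365438, passed the filter on 26 and 30 WAF alone, so that its call followed from how it was kept.

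HAT4 drives the elongation of shaded plants in Arabidopsis, and 2 of its 3 tested olive namesakes showed a clear low at 26 WAF. LOC111386769 had 13.7, 13 and 13.7 FPKM at 17 WAF, 14.5, 15.2 and 15.5 at 21 WAF, 6.61, 5.46 and 6.89 at 26 WAF, and 14.4, 14.5 and 15.6 at 30 WAF. The 26 WAF libraries lay below all others, with a log2 difference of -1.14 ± 0.07 at 26 with 21 WAF (adjusted p = 1.9e-08) and 1.12 ± 0.07 at 30 with 26 WAF (adjusted p = 1.1e-08). LOC111381732 had 14.6, 16.4 and 17.7 FPKM at 17 WAF, 20.2, 19 and 19.7 at 21 WAF, 9.92, 8.99 and 9.48 at 26 WAF, and 16.6, 16.4 and 15.9 at 30 WAF, again with the lowest libraries at 26 WAF. The third, LOC111380060, averaged 1.41 FPKM at 30 WAF, against 0.44 at 26 WAF (log2 difference 0.77 ± 0.20, adjusted p = 0.0045).

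HAT22, a gene that abscisic acid and drought raise in Arabidopsis, was named on 5 tested genes. LOC111366642 had 7.98, 7.20 and 6.0 FPKM at 17 WAF, 6.07, 5.26 and 6.63 at 21 WAF, 1.58, 2.24 and 2.78 at 26 WAF, and 9.77, 10.9 and 9.46 at 30 WAF. Its rise of 1.80 ± 0.13 at 30 with 26 WAF (adjusted p = 7.2e-08) was the largest of class II in that comparison. The most abundant, LOC111410853, had 21.7, 21.1 and 21.2 FPKM at 17 WAF, 36.7, 36.3 and 35.4 at 21 WAF, 28.8, 29.3 and 30.6 at 26 WAF, and 29.7, 34.1 and 31.2 at 30 WAF, so that 21 WAF was its highest age (log2 difference 0.73 ± 0.05 at 21 with 17 WAF, adjusted p = 2.2e-08).

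The HAT22 gene LOC111397228 was lowest at 21 WAF, with 1.82, 1.49 and 1.56 FPKM, against 5.74, 5.02 and 6.13 at 17 WAF (log2 difference -1.34 ± 0.08, adjusted p = 1.2e-08). It had 7.40, 7.09 and 6.64 FPKM at 30 WAF, against 2.34, 2.47 and 2.69 at 26 WAF (log2 difference 1.2 ± 0.08, adjusted p = 2.4e-08). LOC111401027, LOC111365438 and the HAT3 gene LOC111383557 were low at every age, and each was higher at 30 than at 26 WAF, with log2 differences of 1.08, 0.47 and 0.42 (adjusted p = 3.8e-07, 0.0016 and 0.00091).

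The 2 HOX11 genes, named after a rice class II gene, were among the 4 class II genes with their lowest mean at 21 WAF. LOC111370409 had 40.9, 46.3 and 47.7 FPKM at 17 WAF, 33, 34.1 and 29.8 at 21 WAF, 48.4, 47.2 and 50.5 at 26 WAF, and 45.7, 49.1 and 49.7 at 30 WAF, with a log2 difference of 0.58 ± 0.06 at 26 with 21 WAF (adjusted p = 5e-06). LOC111410437 had 8.55, 10.3 and 10.6 FPKM at 30 WAF, against 4.48, 4.81 and 5.88 at 17 WAF (log2 difference 0.84 ± 0.09, adjusted p = 3.2e-06). Light signalling genes, which govern class II genes in Arabidopsis, numbered 73, with 35 tested. Of these, 8 were higher and 17 lower at 30 with 17 WAF, 8 higher and 13 lower at 21 with 17 WAF, 3 higher and 17 lower at 26 with 21 WAF, and 15 higher and 9 lower at 30 with 26 WAF. Set against the shares of all tested genes just given for abscisic acid signalling, the counts at 21 with 17 and at 30 with 26 WAF lay near the background.

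**Figure D5:**
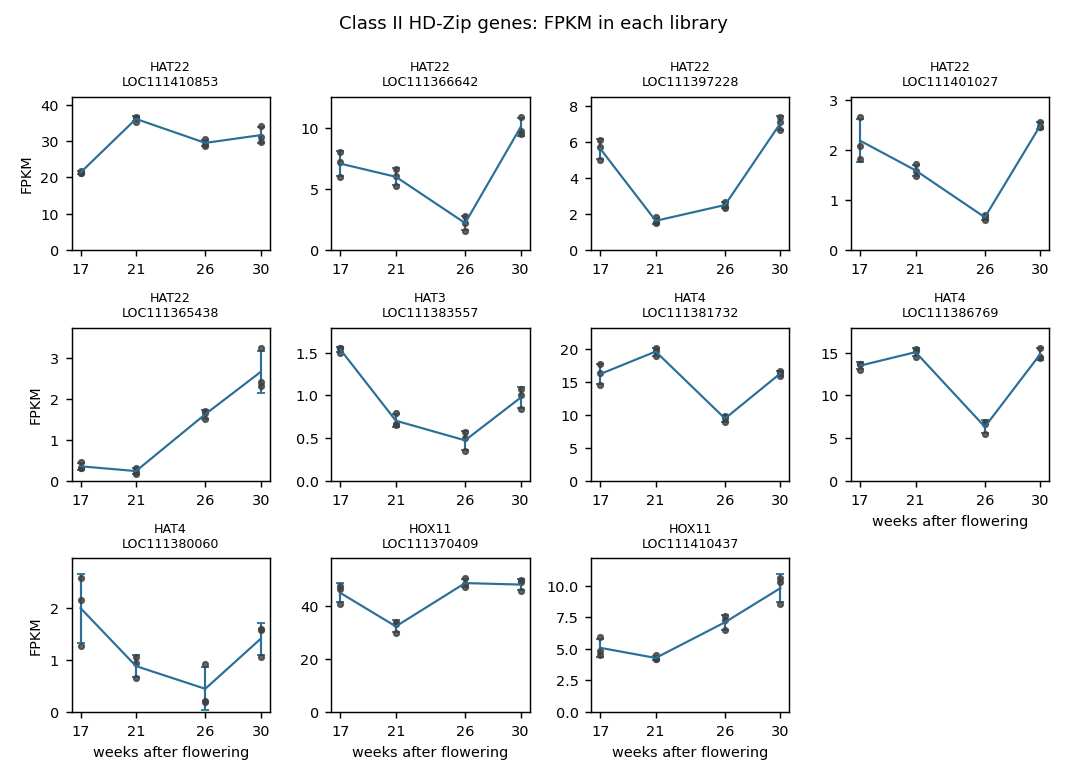
FPKM (y axis) against weeks after flowering (x axis) for the 11 tested class II genes, one panel each. Points are libraries, lines join the means and error bars are the SD of 3 libraries; both HAT4 genes with levels near 15 FPKM have their lowest libraries at 26 WAF.

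The steps between neighbouring ages share libraries with each other and with the comparison of 30 with 17 WAF, so their values are given side by side and do not support one another. At 21 with 17 WAF, 21 of the 59 HD-Zip genes were higher, against a background of 22.2%, and 26 were lower, against 35.9%. The other 12 were not called, where 58.1% of all tested genes were called either way. With median-of-ratios scaling the background was 28.4% higher and 28.1% lower, and 24 HD-Zip genes were higher and 21 lower. Of the 15 epidermal names, 4 were higher and 11 lower with a median log2 difference of -0.41. Class I had 13 higher and 5 lower (median 0.28), class II had 2 higher and 5 lower (median -0.20), and class III had 1 higher and 5 lower (median -0.17). All tested genes had a median of -0.07.

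At 26 with 21 WAF, 10 of the 59 HD-Zip genes were higher, against a background of 23.2%, and 36 were lower, against 32.9%. The other 13 were not called, where 56.1% of all tested genes were called either way. With median-of-ratios scaling the background was 29.2% higher and 25.5% lower, and 12 HD-Zip genes were higher and 32 lower. Limma called 0 epidermal names higher, also at an unadjusted p under 0.05, and 13 lower, with a median log2 difference of -0.52. Class I had 4 higher and 13 lower (median -0.21), class II had 4 higher and 5 lower (median -0.28), and class III had 1 higher and 5 lower (median -0.33). All tested genes had a median of -0.06. The lowest mean of the 4 ages fell at 26 WAF for 24 of the 59 HD-Zip genes and for 28.6% of all tested genes.

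At 30 with 26 WAF, 31 of the 59 HD-Zip genes were higher, against a background of 42%, and 11 were lower, against 24.3%. The other 17 were not called, where 66.3% of all tested genes were called either way. With median-of-ratios scaling the background was 32.3% higher and 31.2% lower, and 27 HD-Zip genes were higher and 14 lower. Of the epidermal names 9 were higher and 1 lower, with a median log2 difference of 0.20, against 0.10 for all tested genes. Class I had 12 higher and 3 lower (median 0.36). Class II had 9 higher (median 0.73), and limma called 0 lower, also at an unadjusted p under 0.05. Class III had 1 higher and 6 lower, with a median of -0.27. The 4 REVOLUTA genes were among the 6, and the differences between classes were not tested.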

How the data were processed

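RNA of olive mesocarp was sequenced on the DNBseq platform, per the labels' protocols. The authors deposited FPKM for each gene and library. The submitters' processing notes name RSEM, Bowtie2 (2.2.5), StringTie (1.0.4) and HISAT2 (2.0.4) without saying what each was used for. The genome build is not given in the sources used here, nor is the handling of strand. Reads shared by near-identical copies, such as the several genes of one name, may have been split between them.

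FPKM are not counts. Ratios of 1252 low genes between libraries were within 0.1 (log2) of the commonest ratio in 6.87 to 13.8% of cases, so reads were not recovered. The depth is unknown and no counting interval is given.

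Every gene that reached 1 FPKM in 3 or more libraries (26131) entered one limma fit (version 3.58.1, R 4.3.3) of log2(FPKM + 1), with a mean per age over 12 libraries, 8 residual degrees of freedom and a variance trend (prior degrees of freedom 4.32). P-values are 2-sided, adjusted by Benjamini-Hochberg over all tested genes, with a threshold of 0.05. The procedure was also run on simulated data with independent noise and few changed genes. These data differ in that most genes were called, so no weight is put on that run. No label says that libraries A, B and C are from separate trees. The p-values thus set each difference against the spread among these libraries alone, and part of that spread may be technical. Same-letter libraries of different ages did not deviate together (correlations -0.0861 to 0.0742 over 18 pairs).

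The members and lists were chosen with earlier results of these data known. Genes were named by a rule: every tested epidermal name, the 4 most abundant of each other class, and per comparison the 3 largest called rises and 3 largest called falls among genes averaging 5 FPKM or more in the higher age. Others named were chosen after their values were seen: the remaining tested members, given so that each name is accounted for, and the genes at the filter. Neighbouring genes come from the RefSeq table of assembly O_europaea_v1, in which 96 of 96 members matched. Sequences were not used here, so planned sequence features and pairs of copies were left out. The fit was repeated with pseudocount 0.1, without the filter, with only genes averaging 5 FPKM, after TPM or median-of-ratios scaling, with library weights, on the 2 compared ages alone, with a replicate block, with HDG names among the epidermal names, and without each library.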

Additional observations from a re-analysis of the deposited data

How the results depend on the processing

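Of the 236 differences of the 59 tested genes, 43 changed their call under at least one alternative, and 0 of those called as reported changed direction. With HDG names added to the epidermal names, 1 was higher at 26 with 21 WAF (0 without them) and 2 were lower at 30 with 26 WAF (1 without them). With a mean FPKM of at least 5, which leaves 41 HD-Zip genes and 10 epidermal names, 2 epidermal names were higher at 30 with 17 WAF and 2 at 21 with 17 WAF (4 in each before), 16 HD-Zip genes were lower at 21 with 17 WAF (26 before), and at 30 with 26 WAF 7 HD-Zip genes (11 before) and 0 epidermal names (1 before) were lower. With median-of-ratios scaling, 2 epidermal names were lower at 30 with 26 WAF, and the cause was not tested. With a replicate block, 22 HD-Zip genes were higher and 29 lower at 30 with 17 WAF, and since the letters were not shown to pair libraries, no weight is put on that fit. Under the block, HAT4 LOC111386769 passed the test at 21 with 17 WAF (0.15, adjusted p = 0.049). The other counts of HD-Zip genes and epidermal names, also with each library left out, stayed within 1.5 times. The depth is unknown, so the counting error of low FPKM cannot be given.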

Other observations

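Homeobox genes without a leucine zipper in their description, such as KNOTTED, BEL1-like and WUSCHEL-related genes, numbered 129, of which 55 were tested. Of these, 16 were higher and 23 lower at 30 with 17 WAF, 15 higher and 19 lower at 21 with 17 WAF, 8 higher and 24 lower at 26 with 21 WAF, and 28 higher and 14 lower at 30 with 26 WAF. Among all tested genes the shares were 34.9% higher and 38.9% lower, 22.2% and 35.9%, 23.2% and 32.9%, and 42% and 24.3% in these comparisons. The lower counts at 30 with 17, at 21 with 17 and at 30 with 26 WAF lay near these shares. Their median sizes of difference were smaller than those of the HD-Zip genes, with 0.36 for the other homeobox genes and 0.67 for the HD-Zip genes on the log2 scale at 30 with 17 WAF.

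A further 7 genes were named HD-Zip by the closest protein match alone and were not among the 96. The most abundant, LOC111379908, matched an ATHB-20-like protein and averaged 9.26 FPKM in week 17, 9.05 in week 21, 9.88 in week 26 and 16.9 in week 30.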
